A study of Arabidopsis thaliana with 24 samples.

Results

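Undifferentiated cultured cells of Arabidopsis thaliana were compared between orbit and the ground on 12 of the 24 arrays of the series. The 12 arrays are all those titled as tissue, 6 from flight dishes and 6 from ground dishes, and the other 12 arrays hold etiolated seedlings. Within them the description centres on 2557 of 22746 probe sets, those above the background of the array on at least 6 of the 12 arrays, and on functions other than the heat shock response. The flight cells were wild type Col-0, spread at about 1 g on nutrient agar in 60 mm dishes, kept in darkness inside BRIC canisters and fixed with RNAlater after 12 days and 21 hours in orbit. The ground cells were of the same genotype, dishes and hardware positions at unit gravity. An age of 7 days is given in the labels for every sample, and how it relates to the time in orbit is not given in the sources used here. In each group replicates 1 to 4 came from canister B and replicates 5 and 6 from canister G. The labels do not state whether the 6 dishes came from separate cultures, so every p-value refers to the spread among these arrays, part of which may be technical. In bulk RNA such as this, fewer cells of a type and less RNA per cell cannot be told apart.

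Plant cells in culture keep dividing and remodelling their walls without forming organs. Their walls carry arabinogalactan proteins, small glycoproteins of the cell surface, and xyloglucan that is cut and rejoined by xyloglucan endotransglucosylases. Methionine is turned into S-adenosylmethionine, the methyl donor for wall phenolics and many other products, by a small family of synthetases. Heat shock factors switch on chaperone genes when proteins unfold, and darkness or sugar shortage raises genes that break down amino acids together with members of the trehalose phosphate synthase family.

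Only a small part of the probe sets passed the background threshold in these cells. The threshold rests on bacterial control probe sets alone, and how far it marks the absence of a transcript was not tested. A probe set counted as above background where it exceeded 95% of the 27 bacterial control probe sets on its array, and 9.94% to 76.7% of probe sets did so on flight arrays, against 11.5% to 23.1% on ground arrays. Flight replicate 5 stood apart with the highest share, since its control probe sets were dim (a background of 171 intensity units, against 566 to 1278 on the other flight arrays). The 2557 probe sets are 11.2% of those tested, and 405 were above background on all 12 arrays. Of the 646 probe sets that passed with exactly 6 arrays, 623 counted flight replicate 5 among the 6. Their median level was 9.38 on the log2 scale, and that of the 1091 probe sets with exactly 5 arrays was 9.05. One probe set passed with no ground array above background and none passed with no flight array. The count of arrays was at least 3 higher in flight for 125 of the 2557 and at least 3 higher on the ground for 73.

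**Figure D1:**
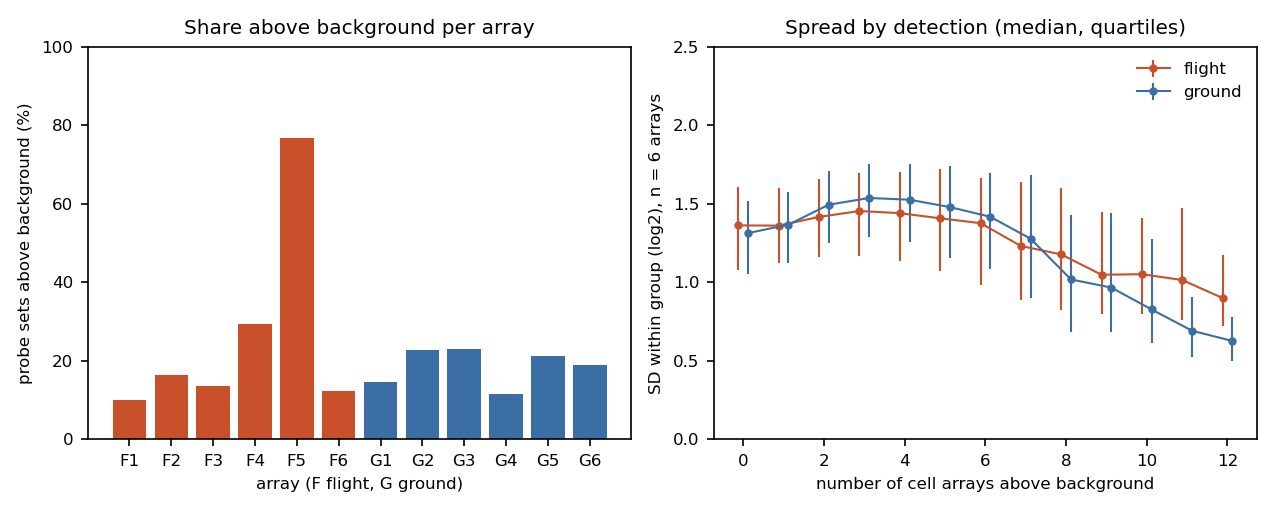
Left, share of the 22746 probe sets above background on each array (percent, flight left of ground), where flight replicate 5 reaches 76.7% and the ground arrays lie between 11.5% and 23.1%. Right, standard deviation within a group of 6 arrays (log2) against the number of cell arrays above background, as median with quartiles over probe sets; it falls to 0.90 in flight and 0.63 on the ground for probe sets above background on all 12.

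The spread between arrays depended on brightness. Its median over the 405 probe sets above background on all 12 arrays was 0.81 on the log2 scale when both groups were pooled. It was 1.23 for those with 6 to 11 arrays and 1.43 for the rest. Among the 405, the flight arrays varied more than the ground arrays for 315 probe sets.

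The label of undifferentiated cells was set against marker genes. With 11.2% of all probe sets passing as the background share, photosynthesis genes were above background on at least 6 arrays for 0 of 36, root hair genes for 1 of 18, shoot epidermis genes for 2 of 16 and seed genes for 1 of 20. Beyond that photosynthesis list, 5 of 102 probe sets annotated with photosynthesis passed, and 55 of 60 plastid genome probe sets did. The shoot epidermis pair was the lipid transfer protein gene LTP2 and FDH. The deposited annotation names FDH formate dehydrogenase, so it entered by its symbol and not as an epidermis gene. Callus and pluripotency regulators were no better measured (1 of 24), and of the cell cycle and replication genes 5 of 41 passed, among them RNR2A on 10 arrays. The dividing-cell markers CYCB1;1 and MCM2 were above background on 0 of 12 arrays each, PCNA1 on 3 and CDKA;1 on 5. Since most markers of callus and of division were below the threshold like those of organs, the label could not be checked at this brightness.

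In the fit of all 22746 probe sets by limma, 8 were higher in flight at an adjusted p under 0.05 (0.0352%) and 0 were lower, with 689 higher (3.03%) and 621 lower (2.73%) at an unadjusted p under 0.05. All 8 belong to the 2557. Of these, 7 are heat response genes: the heat shock factor HSFA2 (a log2 difference of 4.83, adjusted p = 0.000102), the chaperones HSP70, HSP101, Hsp70b, HSP90.1 and HSP17.4, and the cochaperone Hop3 (3.67 to 4.28). The last is AT3G10020, for which the deposited annotation gives a response to oxidative stress and anaerobic respiration.

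AT3G10020 had a lowest, median and highest level of 11.29, 16.84 and 17.71 on the flight arrays, against 7.97, 12.40 and 12.77 on the ground arrays. Flight replicate 5 lay inside the ground range and the other 5 flight arrays above it, while ground replicate 2 lay far below the other ground arrays. The difference was 3.92 on the log2 scale (SE 0.82, adjusted p = 0.00738 by limma). That SE is 1 value shared by all probe sets, while the SD of this gene was 2.65 in flight and 1.83 on the ground (n = 6 each). Without eBayes, which shares the variance between probe sets, the adjusted p of this gene was 0.746. The difference with both canisters kept its size in that fit. Within canister B the difference was 5.05 and within canister G 1.66. Of the 18 fermentation and hypoxia genes on the array 0 passed in either direction and 8 were above background on at least 6 arrays. ADH1, the alcohol dehydrogenase of fermentation, overlapped fully between flight (14.89 ± 0.84) and ground cells (15.15 ± 0.89, SD, n = 6 each). The hypoxia-responsive LBD41 averaged 10.6 in flight and 11.8 on the ground, and the group VII ethylene response factor EBP 11.3 and 10.6.

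The 8 called genes shared an order among the flight arrays. For all 8 the 2 lowest flight arrays were replicates 3 and 5, as HSFA2 shows with 12.70 and 12.62 on these and at least 15.50 on the other 4 flight arrays, against 9.31 to 11.31 on the ground arrays. Replicates 3 and 5 were also the 2 lowest for 259 of the 405 probe sets above background on all 12 arrays (64.0%), against 7.13% of all probe sets. The median level of those 405 was 11.48 and 10.91 on these 2 arrays and 12.38 to 13.11 on the other 4 flight arrays, against 11.75 to 13.13 on the ground arrays. The part of this shift in the called differences was not tested.

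**Figure D2:**
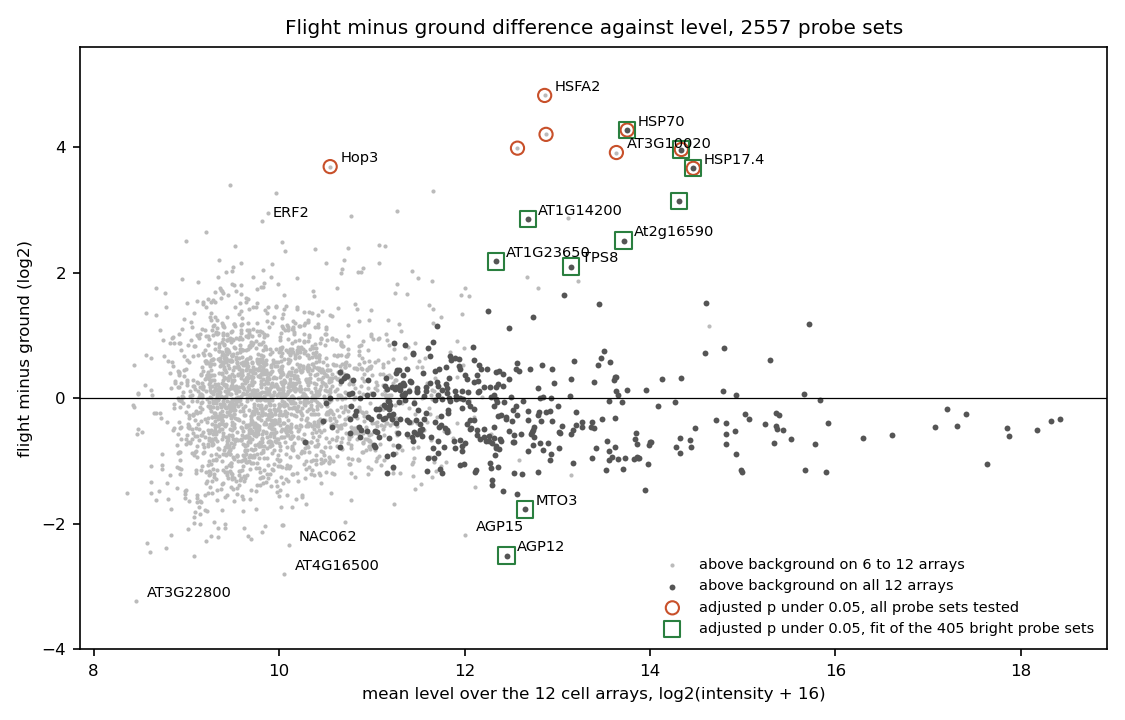
Flight minus ground difference (log2) against mean level over the 12 cell arrays, log2(intensity + 16), for the 2557 probe sets. Circles mark the 8 called over all probe sets, squares the 10 called in the fit of the 405 probe sets above background on all 12 arrays; AGP12 and MTO3 are the called ones below 0.

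Outside the heat shock list, the 12 probe sets with the smallest p among those with a positive difference, AT3G10020 among them, hold 2 more genes that the deposited annotation assigns to the heat response, AT1G53540 (3.15) and AT1G54050 (2.44). Apart from AT3G10020, none of the 12 passed over all probe sets (adjusted p = 0.201 to 0.795). AT1G14200, annotated with protein binding only, had a lowest, median and highest level of 10.79, 14.99 and 16.24 in flight, against 10.60, 11.34 and 11.63 on the ground. Its flight replicates 1, 2, 4 and 6 lay above 14, and replicates 3 and 5 lay beside the ground arrays.

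Among regulators of stress responses, the ethylene response factor ERF2 had a mean of 11.23 ± 1.26 in flight and of 8.41 ± 1.83 in ground cells (SD, n = 6, difference 2.82, adjusted p = 0.428). Only 2 of its ground arrays exceeded background, so its ground mean is mostly a bound. DREB2A, a transcription factor of drought and heat responses, averaged 11.94 ± 1.65 in flight cells and 9.54 ± 0.55 in ground cells (adjusted p = 0.758). Its 6 flight arrays and 1 of its ground arrays exceeded background, and flight replicate 5 lay within the ground range. GSTU7, a tau class glutathione transferase, averaged 10.74 in flight and 8.31 on the ground, with 5 flight arrays and 1 ground array over background. The further members were SKIP, a splicing and transcription factor (means of 11.80 and 9.59), PANC, which makes pantothenate (2.34), AT5G45190, whose RefSeq synonym is the T-type cyclin CYCT1;5 (2.37), AT5G55670 (2.51) and AT1G64600 (2.65). SKIP and the last 3 also exceeded background on only 2 ground arrays each, and PANC on 3. Replicates 3 and 5 were the lowest flight arrays for 8 of these 12 probe sets.

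PDX1.2 and AT1G22930 were separated from the ground on every flight array. PDX1.2, a member of the vitamin B6 synthesis family known to be induced by heat, had a lowest, median and highest level of 11.20, 12.38 and 12.88 in flight, against 8.87, 10.13 and 10.75 on the ground. All 6 flight arrays lay above all 6 ground arrays with a gap of 0.46 (difference 2.15, adjusted p = 0.795). AT1G22930, which has no function in the deposited annotation, was above background on 6 flight arrays and no ground array and was at least 1.97-fold higher in flight, with the dim arrays set to their background (means of 10.88 and 8.95). HSFA2 was the remaining one of the 3 probe sets, of the 2557, whose flight arrays all lay above the ground arrays (0.117%, against 0.141% of all probe sets tested). AT1G22930 is among the 2557 only through its flight arrays, so that share is a description.

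Of the arabinogalactan genes, AGP12 and AGP15 were lower on every flight array than on any ground array. AGP12, an arabinogalactan peptide of the cell surface, had a lowest, median and highest level of 10.12, 11.65 and 11.75 in flight, against 13.24, 13.57 and 14.65 on the ground. The 2 groups did not overlap, and their gap was the widest among the 14 probe sets of the 2557 whose flight arrays all lay below the ground arrays. The difference was -2.51 on the log2 scale (SE 0.82, the value shared by all probe sets, adjusted p = 0.705 over all probe sets). It was -2.63 within canister B and -2.26 within canister G. AGP15, of the same peptide family, gave 10.08, 10.81 and 12.16 in flight against 12.64, 13.08 and 13.55 on the ground, again without overlap (difference -2.18, adjusted p = 0.795). AGP24 overlapped between flight cells (11.64 ± 0.90) and ground cells (12.95 ± 0.66, SD, n = 6 each). Unlike the called genes, AGP12 was not lowest on replicates 3 and 5 but on replicates 4 and 5, and AGP15 on replicates 3 and 4.

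Of 3 measured S-adenosylmethionine synthetase genes, MTO3 and SAM1 were lower on every flight array than on any ground array, and SAM-2 overlapped (11.93 ± 0.69 in flight and 12.61 ± 0.66 in ground cells, SD, n = 6, adjusted p = 0.973). MTO3 had a lowest, median and highest level of 11.21, 11.76 and 12.27 in flight, against 12.81, 13.60 and 14.22 on the ground (difference -1.77, adjusted p = 0.852). SAM1 had 8.89, 10.41 and 11.72 against 11.73, 12.08 and 12.39, a gap of 0.01 (difference -1.68, adjusted p = 0.852). HOG1, the adenosylhomocysteinase that removes the product of methyl transfer, overlapped between flight (10.35 ± 1.41) and ground (11.57 ± 0.60) cells (SD, n = 6 each). Of the 17 methionine and SAM cycle genes on the array, 6 were above background on at least 6 arrays and 0 of these 6 had a positive difference. Of all 2557 such probe sets 1234 had a positive difference. Of the 405 above background on all 12 arrays, which hold 4 of the 6 genes, 145 did. None of the 17 passed over all probe sets. The synthetase genes are close paralogs, and cross-hybridization between their probe sets was not tested.

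The other 10 of the 14 probe sets without overlap in the lower direction were spread over several functions. They include XTH18, a xyloglucan endotransglucosylase (means of 11.17 ± 0.79 in flight and 12.30 ± 0.32 in ground cells, SD, n = 6), the beta-glucosidase gene BGLU46 (11.68 ± 0.86 and 13.16 ± 0.46), the trypsin inhibitor TI1 (9.81 ± 0.88 and 11.31 ± 0.34) and EIF4A1, an RNA helicase of translation initiation (9.54 ± 0.59 and 10.87 ± 0.54). PLDALPHA1, a phospholipase D, and the aspartic protease gene NANA were above background on 2 flight arrays each, so their flight levels are mostly bounds. The rest were AT5G42050, AT5G64130, the calcium-binding AT4G27280 and a probe set that pairs with several ribosomal protein genes. In share these 14 are 0.548% of the 2557, against 0.127% of all probe sets tested, and among the 405 brighter probe sets 7 (1.73%) were separated downward and 0 upward. NANA (2 flight and 6 ground arrays above background), PLDALPHA1 (2 and 5) and EIF4A1 (3 and 6) are among the 2557 mainly through their ground arrays. The 405 also had a smaller spread than the dim probe sets and a median difference of -0.27. These shares are therefore a description.

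**Figure D3:**
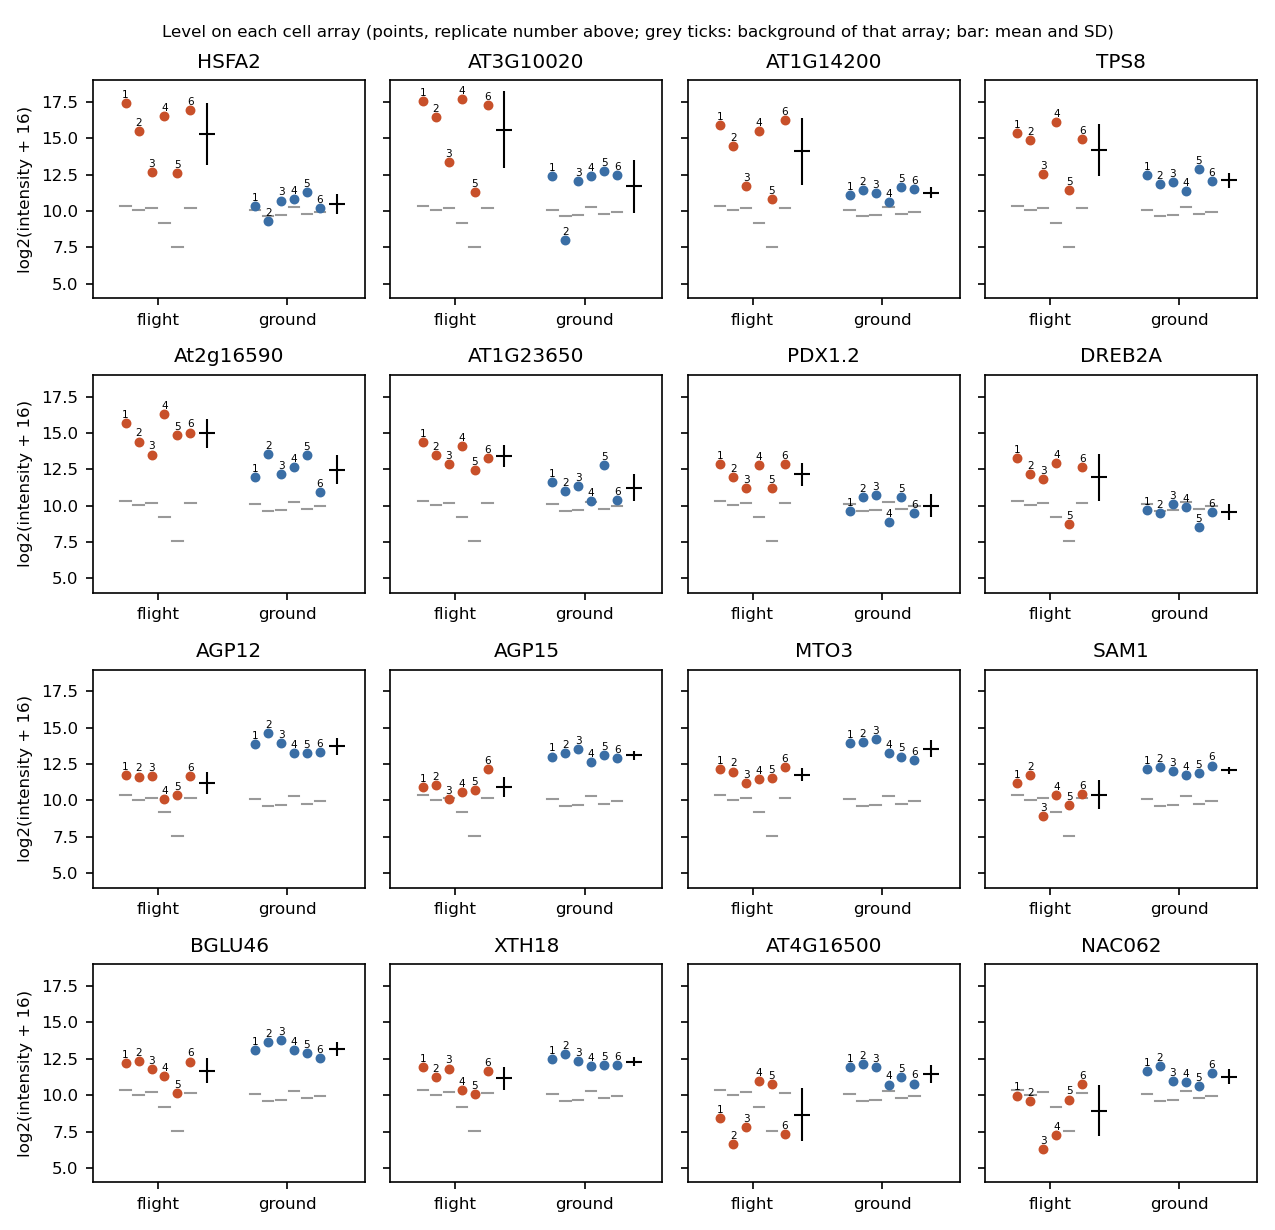
Level of 16 probe sets on each cell array, log2(intensity + 16), flight left of ground, with At2g16590 not paired with a single gene. Points are arrays with their replicate number, the black bar is the mean with SD (n = 6) and grey ticks are each array's background; the upper 2 rows hold genes high in flight, mostly with replicates 3 and 5 lowest, and the lower 2 rows genes low in flight, where AGP12, AGP15, MTO3, SAM1, BGLU46 and XTH18 do not overlap.

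The 12 probe sets with the smallest p among negative differences were mostly dim in flight, and none passed (adjusted p = 0.135 to 0.795). AT3G22800, annotated as a structural constituent of the cell wall, had a lowest, median and highest level of 5.69, 6.48 and 9.26 in flight, against 9.26, 9.99 and 11.17 on the ground, and exceeded background on 1 flight array and 5 ground arrays. The cystatin gene AT4G16500 (RefSeq synonym CYS4), an inhibitor of cysteine proteases, had 6.63, 8.13 and 10.95 in flight, against 10.73, 11.57 and 12.16 on the ground. Flight replicates 4 and 5 reached the ground range for this gene and the other 4 flight arrays did not. NAC062, a transcription factor of the NAC family, had a mean of 8.93 ± 1.75 in flight and of 11.27 ± 0.54 in ground cells (SD, n = 6, difference -2.34) and exceeded background on 2 flight arrays but all 6 ground arrays. The rest, with AGP12, NANA and PLDALPHA1, were the lysine degradation gene AT4G33150 (-2.39), the cell cycle regulator UVI4-LIKE (-2.45), the cold-responsive AT4G34150 (-2.20), AT1G04960, AT2G19380 and AT1G25570 (-2.28 to -2.51), each above background on 1 or 2 flight arrays.

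**Figure D4:**
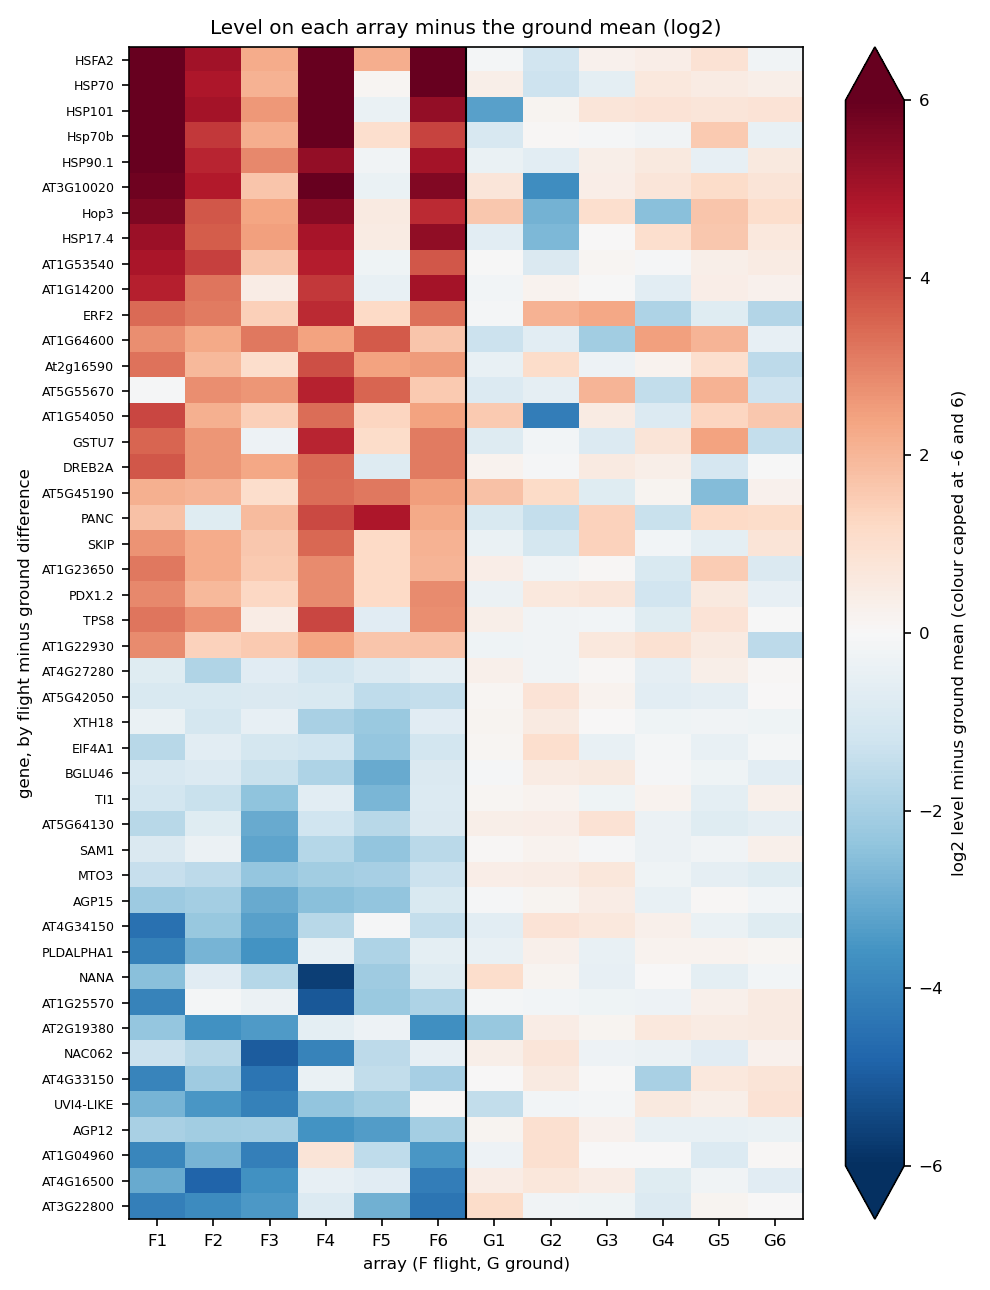
Level on each array minus the ground mean (log2, colour capped at 6 in either direction) for 46 genes named in the text, ordered by the flight minus ground difference, with the 6 flight arrays (F) left of the 6 ground arrays (G). Genes at the top are darkest on F1, F2, F4 and F6; genes at the bottom are lower on most flight arrays without that order.

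The 405 probe sets above background on all 12 arrays were also fitted alone, with a prior variance that follows brightness, which was decided on with the values in view. In that fit 10 passed (2.47%), 8 of them higher (1.98%) and 2 lower (0.494%). Beside HSP70, HSP90.1, HSP17.4 and AT1G53540, the higher ones were AT1G14200 (adjusted p = 0.0124), At2g16590 (2.51, adjusted p = 0.00254), AT1G23650 (2.18, adjusted p = 0.00419) and TPS8 (14.20 ± 1.80 in flight and 12.10 ± 0.53 in ground cells, adjusted p = 0.0423). TPS8 is a trehalose phosphate synthase family gene, and neither At2g16590 nor AT1G23650 has a function in the deposited annotation. At2g16590 had a lowest, median and highest level of 13.51, 14.95 and 16.31 in flight, against 10.90, 12.42 and 13.54 on the ground. AT1G23650 had 12.44, 13.39 and 14.40 in flight, against 10.35, 11.18 and 12.78 on the ground. In both probe sets all 6 flight arrays exceeded the ground mean, flight replicate 5 included. At2g16590 is the public identifier of its probe set, which was not paired with a single gene. The lower ones were AGP12 (adjusted p = 0.0017) and MTO3 (adjusted p = 0.0423).

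With each array left out in turn, this fit gave 7 to 22 calls, the most without flight replicate 5. AGP12, AT1G23650 and At2g16590 passed in each of the 12 fits, with adjusted p of at most 0.0105, 0.0433 and 0.0227. AT1G14200 passed in 9 of the 12, TPS8 in 3 and MTO3 in 1. Over the 2557 probe sets with the same kind of prior, AGP12 (adjusted p = 0.0193), AGP15 (adjusted p = 0.0335) and At2g16590 (adjusted p = 0.0325) passed among 7.

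By function, 32 lists with 996 gene entries on the array were compared, and of the 31 outside the heat shock list 0 held a gene that passed over all probe sets by limma. Their 947 entries gave 63 with an unadjusted p under 0.05 (6.65%), against 5.76% of all probe sets. Counts below refer to members above background on at least 6 arrays and describe the measurable genes. The median difference of all 2557 such probe sets was -0.04 on the log2 scale, and that of the 405 above background on all 12 arrays was -0.27.

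Carbon starvation genes went both ways, with 0 of 30 passing over all probe sets. Beside TPS8, the trehalose phosphate synthase genes TPS9 and TPS11 differed by 1.76 and 1.71, and the leucine degradation gene IVD by 2.01. In contrast the dark-induced asparagine synthetase gene ASN1 differed by -1.21 and GDH2, a glutamate dehydrogenase, by -0.77. Ground replicate 4 was the lowest array for both TPS9 (6.86) and IVD (6.80), and within canister G their differences were 0.07 and 0.63.

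Translation genes were the best measured list, with 19 of 27 above background on at least 6 arrays, and 5 of the 19 had a positive difference (median -0.48). None of the 27 passed over all probe sets. The initiation factor EIF3E had means of 8.72 in flight and 10.51 on the ground with an adjusted p of 0.852, above background on 2 flight arrays, and its difference was -2.88 within canister B but 0.39 within canister G. Of 331 probe sets annotated as structural constituents of the ribosome, 65 were above background on all 12 arrays, and 48 of the 65 had a negative difference (median -0.28, against -0.27 for all 405). In the authors' deposited table, 30 of the 65 were negative. Of the 23 measurable ubiquitin and proteasome genes, 8 had a positive difference (median -0.21).

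In the endoplasmic reticulum folding list, 7 of 24 genes were measurable and 2 had a positive difference (median -1.05). ATERDJ3B, a cochaperone of that compartment, had means of 8.81 ± 1.19 in flight and 10.38 ± 0.64 in ground cells (SD, n = 6), and the lectin chaperone CNX1 had 8.78 in flight and 10.23 on the ground. They exceeded background on 1 and 2 flight arrays, and none of the 24 passed. The positive ones were ATERDJ2A (1.26) and PDIL1-1 (0.09). Of the expansin and xyloglucan endotransglucosylase genes 7 of 45 were measurable, with a median of -0.99, and XTR6 averaged 9.02 in flight and 11.04 on the ground. For wall synthesis and arabinogalactan genes the median over 11 of 54 was -0.27, with 4 of the 11 positive.

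Nitrogen assimilation had 7 of 21 genes measurable and 2 positive (median -0.75). Nitrate reductase NIA2 stood at 10.71 ± 0.89 in flight and 11.90 ± 0.66 in ground cells (SD, n = 6). Glycolysis (9 of 26, median -0.34), antioxidant enzymes (13 of 36, -0.21) and metallothioneins with iron storage genes (6 of 15, -0.41) held no gene that passed. For the metallothionein MT1C the flight cells had 15.10 ± 0.80 and the ground cells 16.25 ± 0.70 (SD, n = 6). The early stress regulators split, with 11 of 19 positive, from ERF2 and DREB2A to NAC062 and WRKY33 (-1.76). In the defence list the negative member PBP1 (-1.69) is, per the deposited annotation, a calcium-binding protein that binds PINOID, and so entered by its symbol.

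**Figure D5:**
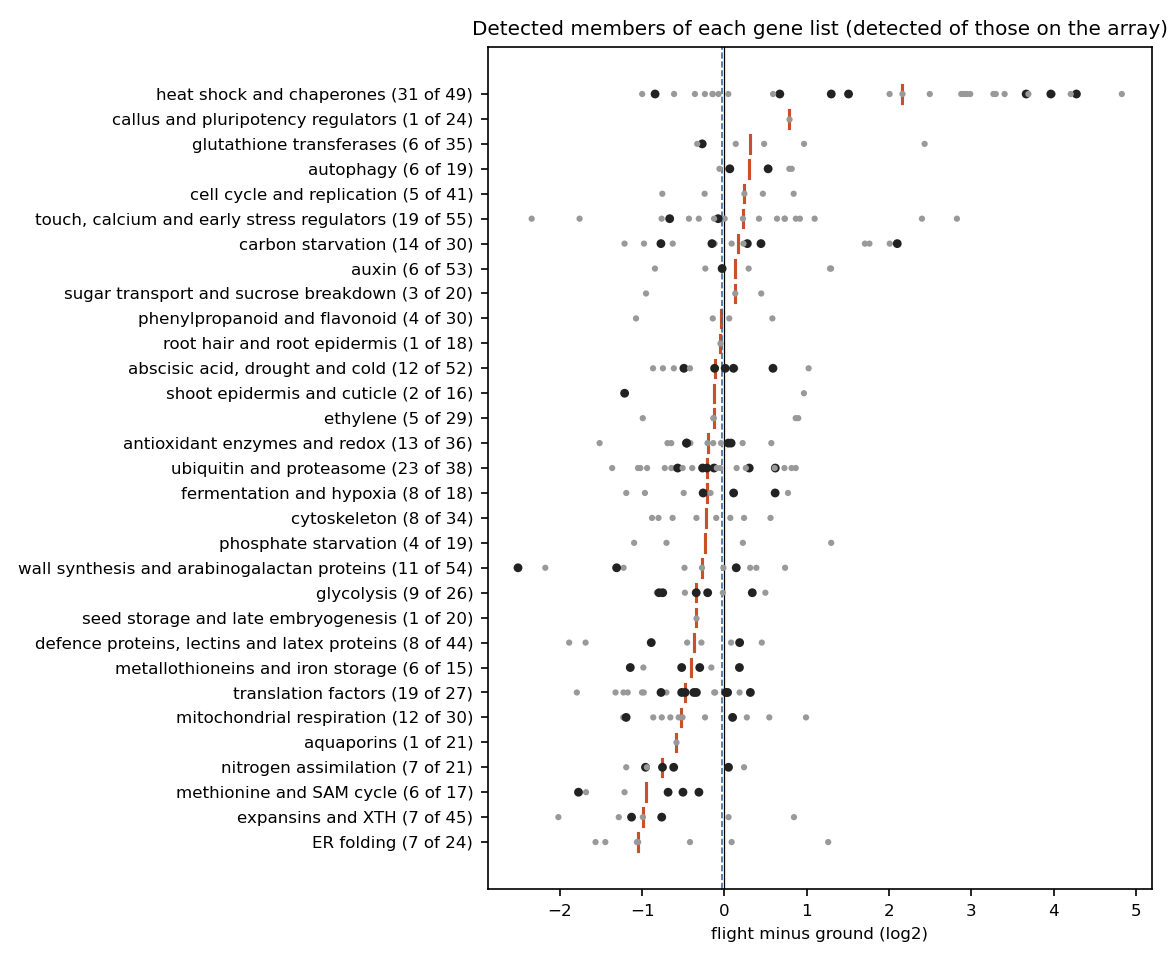
Flight minus ground difference (log2) of every list member above background on at least 6 of the 12 cell arrays, 1 row per list with the number of such members of those on the array. The gene ERD5 (0.24) of the nitrogen assimilation row entered the cytoskeleton row by a name match as well, and the count and median of that row include it. Black points were above background on all 12 arrays, the orange bar is the list median and the dashed line the median of all 2557 probe sets (-0.04); the heat shock list has a median of 2.16 and the lowest list median is -1.05.

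Transcripts of the organelle genomes were among the brightest probe sets. All 9 mitochondrial and all 28 plastid genome probe sets above background on all 12 arrays had negative differences (medians -0.66 and -0.95) and none passed, while within canister G 7 of the 28 plastid ones were positive. In the authors' deposited table, 6 of the 9 and 26 of the 28 were negative, and over all 405 the direction was even, with 212 positive and 192 negative (median 0.05). The median difference of the 405 probe sets was -0.27 as deposited and -0.38 after quantile normalization, which left 110 of them positive in place of 145. The 283 nuclear, non-ribosomal ones had a median of -0.07, of 0.05 within canister B and of -0.40 within canister G. After quantile normalization their median was -0.22, and in the authors' deposited table it was 0.17 (163 positive and 119 negative). Both the size and the direction of that shift among them therefore depended on canister and processing. For the 65 ribosomal probe sets the count of positive differences was 17 as deposited and 9 after quantile normalization. The 12 brightest probe sets of all differed by -1.05 to -0.18 and none passed. In the authors' deposited table, 11 of these 12 were positive, so their direction depends on the processing. Brightness depends on the probes and gives no order of abundance between genes.

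Within canister B alone (4 against 4 arrays) 8 probe sets passed, all of them the 8 called with both canisters. These arrays are part of the 12, so this is not a separate check of the calls. The differences of the 8 were 4.60 (HSP17.4) to 5.46 (HSP101) within canister B. Within canister G (2 against 2 arrays) each was smaller, from 1.17 (Hop3) to 4.01 (HSFA2).

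For the same contrast in etiolated seedlings, a fit of all 24 arrays tested whether flight minus ground differed between cells and seedlings. It passed for 0 of 22746 probe sets (0.0%) by limma, with 1508 at an unadjusted p under 0.05 and a smallest adjusted p of 0.0644, that of HSFA2 (4.83 in cells and -1.58 in seedlings). AGP12 differed by -2.51 in cells and 0.32 in seedlings (adjusted p = 0.415 for the difference), and MTO3 by -1.77 and 0.84 (adjusted p = 0.509). These cell effects were therefore not shown to be particular to cells.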

How the data were processed

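RNA of 12 cell samples was measured on Affymetrix arrays. The deposited values are MAS5 intensity values. The submitters' processing notes name Affymetrix Expression Console without a version. The trimmed mean (2% at each end) was 500 on every array. The authors' deposited table of flight against ground cells holds, per the file headers, log2 fold changes with p-values and q-values. The test behind it is not named there. Its smallest q was 0.155.

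After removal of 64 control probe sets, log2(intensity + 16) was fitted by lmFit and eBayes of limma 3.58.1 under R 4.3.3. Two-sided p-values were adjusted by Benjamini-Hochberg across the 22746 remaining probe sets. The prior drew all variances to 1 value, giving an SE of 0.82 throughout. The number of arrays limits precision. Of the 2557 probe sets, 2245 pair with 1 gene (RefSeq TAIR10.1 table and the deposited annotation), 162 with several or with identifiers that disagree, and 150 with none. For lists, a gene's brightest probe set was used. "At least N-fold" sets the bright group's mean against the dim group's arrays raised to background.

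Named genes are all called probe sets, the 12 smallest p per direction outside the heat shock list, the 3 smallest p and the brightest of each list, the 12 brightest and up to 8 per direction without overlap. Those with no gene, several genes, a narrower gap without overlap or a call only in the fit of 405 probe sets, and a few list members given as examples (TPS11, ASN1, WRKY33), were chosen after their values were seen. Members and lists were chosen with earlier results of these data known. Fits were tested on simulated data. Python 3.11.15 was used for tables and plots.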

Additional observations from a re-analysis of the deposited data

Results flagged for a closer look

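By a test for a lone extreme array in a group of 6, applied to 114 groups of values, 9 were singled out, where chance gives about 1 in 20. Flight replicate 5 had the highest share of probe sets above background (76.7%). Flight replicate 5 was also lowest among flight arrays for DREB2A (8.75) and for the ribosomal probe set At3g44010 (10.17), and flight replicate 4 for NANA (5.17). On the ground, replicate 1 was lowest for HSP101 (7.53) and AT2G19380 (7.48), replicate 2 for AT3G10020 (7.97), and replicate 4 for TPS9 (6.86) and AT4G33150 (8.01). In HSP101, AT3G10020 and TPS9 the low ground array widens the difference, and in AT2G19380 and AT4G33150 it narrows it.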

How the results depend on the processing

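The count of 8 called probe sets, over all probe sets and within the 2557, fell to 1 with a pseudocount of 1, with quantile normalization or in a fit of the 2557 alone, and to 0 without eBayes (1355 at an unadjusted p under 0.05) or by the authors' deposited q-values. It was 22 with a trended robust prior and 39 with all 24 arrays in 1 fit, of which 14 lie in the 2557. Leaving out 1 array gave 1 to 11, with 1 without flight replicate 1 or 4, 4 without flight replicate 6 and 5 without flight replicate 2 or ground replicate 2. The fit with hardware position as a replicate block gave 8, as did canister as a block. Deviations of same-position arrays correlated at -0.05 to 0.10 over all probe sets, -0.10 to 0.26 over the 2557 and -0.20 to 0.15 over the 405, so the position was not taken as pairing them. In the fit of the 405 probe sets, chosen after the data were seen, 10 calls became 7 to 22 with 1 array left out. The number of measurable probe sets was 1749 with background at the highest control and 1934 to 2395 without 1 array, lowest without flight replicate 5. For 56 genes with a printed difference, 0 of 1432 alternative values changed sign, 73 lost a call and 31 gained one. Many of the alternatives change only the variance, the blocks or the probe sets fitted. They leave the difference itself as it was, at -2.51 for AGP12. Those without 1 array reuse the remaining arrays. The unchanged signs were therefore largely fixed in advance and are not a check of direction. The differences within canister G were not among these alternatives, and there EIF3E differed by 0.39, against -1.79 with both canisters. AT3G10020 lost its call in 12 alternatives. Its adjusted p was 0.193 with quantile normalization, 0.746 without eBayes and 0.893 with a trended robust prior, and the authors' deposited q was 0.638. The call was also lost with flight replicate 1, 2, 4 or 6 or ground replicate 2 left out. AGP12 and AT4G16500 passed with a trended robust prior (adjusted p = 0.00241 and 0.0336) and with all 24 arrays in 1 fit (adjusted p = 0.0399 each). Of the 405, 335 had the same sign in the authors' deposited table. The cause of these shifts was not tested. The background threshold limits the rest: 20189 probe sets were above background on 5 arrays or fewer.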
